A study of Mus musculus with 33 samples.

Results

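The genes described here encode the protein subunits of the oxidative phosphorylation machinery in mouse embryonic stem cells (ESCs). They were taken by symbol alone, as every gene named for a Nduf, Sdh, Uqcr, Cox4 to Cox8 or Atp5 subunit or for a protein gene of the mitochondrial genome, with Ndufa4l2 left out. No measured value was used for the choice. Of 55487 genes in the tables, 110 met the rule, of which 13 lie on the mitochondrial genome and 97 in the nucleus. The nuclear symbols held 89 subunit genes and 8 complex I assembly factors whose symbols begin with Ndufaf, which are counted separately below. Of the 89, 4 are annotated as processed pseudogenes (Cox6c2, Ndufa11b, Ndufs6b and Ndufb4c).

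The study removed heterochromatin protein 1 (HP1) from ESCs and measured RNA in 33 libraries, 3 in each of 11 groups. Hp1α, Hp1β and Hp1γ are the genes Cbx5, Cbx1 and Cbx3. Mutants lacking Hp1α (Hp1α Δ/Δ), Hp1β (Hp1β Δ/Δ) or Hp1γ (Hp1γ Δ/Δ) carried constitutive disruptions made with CRISPR-Cas9, as did those lacking Hp1α with Hp1β (Hp1α/β Δ/Δ), Hp1α with Hp1γ (Hp1α/γ Δ/Δ) or Hp1β with Hp1γ (Hp1β/γ Δ/Δ). The triple mutant (Hp1α/β/γ Δ/Δ) was made by Cre recombinase in cells with the Hp1α and Hp1β disruptions and a floxed Hp1γ gene (Hp1γ F/F), so it shares those disruptions with the Hp1α/β Δ/Δ cells. Per the paper its RNA was taken within days of Cre transfection, unlike that of the constitutive lines. The paper also reports extensive apoptosis and arrest of the cell cycle in the triple mutant, and their part in the results was not tested. Setdb1 encodes a histone H3 lysine 9 methyltransferase, and cells with a floxed Setdb1 gene (Setdb1 F/F) were compared with cells in which Cre had deleted it (Setdb1 Δ/Δ). Wild-type cells came as a pair of sets with the same label. Set A accompanied the single mutants, the Hp1α/β Δ/Δ cells and the triple mutant, and set B accompanied the remaining pairs, both of which include Hp1γ. All lines were C57BL/6 ESCs grown on mouse embryonic fibroblast feeders in serum with LIF, and the feeders were removed by a short plating step. The sources do not state how many independent clones stand behind the 3 libraries of a group, and floxed Hp1γ cells given a control vector were not analysed here.

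Oxidative phosphorylation couples electron transfer in the inner mitochondrial membrane to ATP synthesis. Complexes I to IV pass electrons from NADH and succinate to oxygen, complexes I, III and IV pump protons on the way, and complex V, the ATP synthase, uses the proton gradient to make ATP. Most subunits are nuclear-encoded and imported, while a small core set is made from mitochondrial DNA, and naive mouse ESCs are known to use both respiration and glycolysis.

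Total estimated counts were 17330936 to 25743149 per library (median 21522569). Values by library are given as counts scaled to the library total (CPM) with TMM scaling over all libraries, and log2 fold changes and adjusted p-values are from the quasi-likelihood test of edgeR, adjusted after Benjamini and Hochberg, in each comparison of 3 against 3 libraries. A gene rose or fell where the adjusted p was under 0.05, and a change is called by fold where the log2 fold change was also over 1 in size. Each targeted gene was lower in its mutant: Cbx5 averaged 484 CPM in set A and 282 CPM in the triple mutant, Cbx1 439 and 46.2 CPM, and Cbx3 177 and 64.6 CPM, and Setdb1 averaged 132.1 CPM in Setdb1 F/F and 69.8 CPM in Setdb1 Δ/Δ cells. The summed level of 6 pluripotency markers was 1230 to 6064 CPM in every library, with none of the 6 at 0, while 4 testis markers were at or near 0 throughout. The second Hp1α/γ Δ/Δ library stood apart from the rest, so results of that group are given with and without it.

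In set A the 89 nuclear subunit genes had a median level of 150.6 TPM (a scale per length of transcript), and 59 of them were at 100 TPM or more. Atp5b, the catalytic β subunit of ATP synthase, was the highest at 3388 ± 153 TPM (SD, n = 3). It was followed by Cox7c at 859 TPM, Cox4i1 at 675 TPM and Atp5a1, which encodes the α subunit, at 666 TPM. At the other end, 7 genes were under 1 TPM, among them the muscle isoforms Cox6a2 and Cox8b and the testis isoform Cox8c. These 3, the pseudogenes Cox6c2, Ndufa11b and Ndufs6b, and 1 of the Atp5o entries were too low to be tested in any comparison, and Cox4i2 and Cox7b2 were tested in only some. The genes are short, with a median listed transcript length of 680 bases against 2688 bases over all genes tested in the triple mutant comparison.

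In the triple mutant most nuclear subunit genes were slightly lower than in wild type and a few were lower by more than 2-fold. Summed over the 89 genes, set A libraries held 8791, 8732 and 8712 CPM and triple mutant libraries 7717, 7913 and 7657 CPM, so the mutant sum was 88.8% of wild type and the groups did not overlap. Of 82 genes tested, 51 fell and 17 rose, where 39.9% of all genes tested fell and 41.7% rose. The median log2 fold change was -0.30, with a range of -2.54 to 0.72, and the median of all genes lay within 0.04 of 0 in every comparison. A fit of all 33 libraries with a shared spread called 41 of the members in place of these 68. Changes by fold were found in 7 of the 82, all lower, against 42.3% of all genes in either direction. In 46 members each mutant library was below each wild-type library, which held for 39.5% of all genes tested. In these bulk libraries fewer cells of a type and less RNA per cell cannot be told apart.

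**Figure D1:**
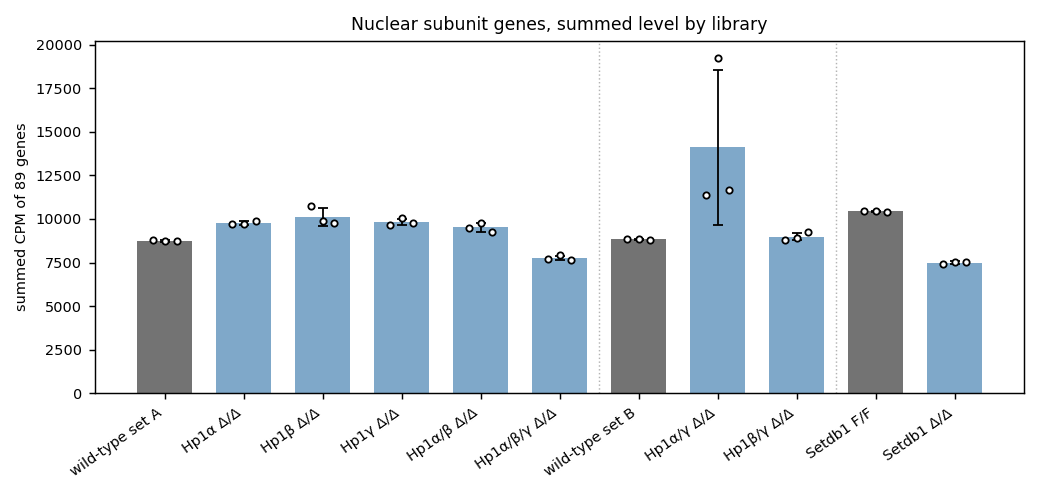
Summed level of the 89 nuclear subunit genes in CPM (vertical axis, from 0) for each group, with bars at the mean ± SD (n = 3), grey bars for controls and points for the libraries. The triple mutant and Setdb1 Δ/Δ libraries lie below their controls, and the second Hp1α/γ Δ/Δ library, at 19260 CPM, lies above every other library.

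All 7 genes that fell by fold in the triple mutant belonged to complexes IV and V. In complex IV, cytochrome c oxidase, 10 of 16 tested genes fell and 2 rose (median log2 fold change -0.38). Cox7a2l encodes a Cox7a-like protein known from supercomplexes of complexes III and IV. Neither its allele nor supercomplexes were examined in these cells. Its level was 113.4, 116.5 and 115.4 CPM in set A and 42.6, 50.0 and 40.3 CPM in the mutant, a log2 fold change of -1.41 ± 0.0587 (SE; edgeR adjusted p = 3.29e-14). Cox7c, a small structural subunit, went from 153.3, 150.6 and 159.7 CPM to 80.0, 69.3 and 70.3 CPM. Ndufa4, once counted in complex I and now placed in complex IV, went from 89.9, 84.9 and 83.9 CPM to 41.9, 41.5 and 38.9 CPM (log2 fold change -1.11). All libraries of the mutant were below all of the wild type for these 3 genes.

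Cox4i1, the ubiquitous isoform of subunit 4, moved the other way, from 234.8, 231.5 and 226.1 CPM to 284, 293.9 and 286.8 CPM (log2 fold change 0.29, edgeR adjusted p = 4.34e-09), and its groups did not overlap. Wild-type set B averaged 273.9 CPM for Cox4i1, a log2 fold change of 0.25 over set A. Its hypoxia-linked isoform Cox4i2 was near the detection limit, at 0.878, 0.878 and 0.865 CPM in set A and 0.179, 0.149 and 0.120 CPM in the mutant (-2.54 ± 0.496, SE). Cox6b2, the testis isoform of subunit 6b, fell from 12.2, 9.93 and 10.4 CPM to 4.60, 5.36 and 3.57 CPM, while the ubiquitous Cox6b1 fell by 0.36 on the log2 scale. The heart and muscle isoform Cox7a1 did not pass the test (-0.04), and Cox6a1, Cox7b and Cox7b2 did not pass either, with values of -0.08, -0.04 and -0.33. Cox8a, the ubiquitous subunit 8, fell by 0.27.

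In complex V, 14 of 17 tested genes fell and 1 rose (median -0.38). Atp5d, the δ subunit of the central stalk, was at 140.9, 145.4 and 145.8 CPM in set A and at 65.7, 69.2 and 62.7 CPM in the mutant (-1.16 ± 0.0415, SE, edgeR adjusted p = 3.11e-15). The γ subunit gene Atp5c1 fell from 219, 227.4 and 218.1 CPM to 109.1, 116.5 and 115.1 CPM (-0.99). Atp5j, which encodes coupling factor 6 of the peripheral stalk, fell from 95.0, 96.4 and 93.9 CPM to 47.7, 45.1 and 49.9 CPM. Atp5j was also lower in Hp1α/β Δ/Δ cells than in set A (-0.28), and it lies on chromosome 16, described below. The subunits of the catalytic head had smaller changes: Atp5a1 fell by 0.15 and Atp5b by 0.13 on the log2 scale. The c ring genes Atp5g1, Atp5g2 and Atp5g3 fell by 0.38, 0.57 and 0.73.

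Complex I, the NADH dehydrogenase, was divided. Of its 37 genes 20 fell and 9 rose (median -0.18). In the NADH-oxidising N module 7 of 11 fell and 3 rose, and in the ubiquinone-binding Q module 2 of 6 fell and 2 rose. In the proton-pumping P module 11 of 20 fell and 4 rose. The complex I and P module counts, here and below, include the processed pseudogene Ndufb4c, which fell in the triple mutant (-0.35). The core iron-sulfur and flavin subunits themselves went in opposite directions, with Ndufs7 (-0.67) and Ndufv1 (-0.46) lower and Ndufs1, the largest subunit, higher at 154.2, 164.7 and 157.5 CPM against 118.8, 117.4 and 115.7 CPM (0.41). Ndufa9, an accessory subunit at the Q module, rose from 73.6, 70.8 and 72.0 CPM to 113.5, 114.7 and 116.8 CPM (0.65 ± 0.0388, SE, edgeR adjusted p = 1.03e-11). The highest fold change among the members was that of the small accessory subunit Ndufa3, from 9.34, 11.6 and 9.52 CPM to 17.6, 17.7 and 16.1 CPM (0.72). Wild-type set B averaged 15.1 CPM for Ndufa3, a log2 fold change of 0.57 over set A. Ndufv3 (0.47) and Ndufb7 (0.45), a pair of accessory subunits, also rose.

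Complex II, succinate dehydrogenase, was split evenly, with Sdha (0.11) and the membrane anchor Sdhd (0.41) higher and the iron-sulfur subunit Sdhb (-0.58) among the 2 of 4 that fell. In complex III, the cytochrome bc1 complex, 5 of 8 genes fell and 3 rose (median -0.20), with Uqcrc1, a core subunit, at 0.10 and the Rieske protein gene Uqcrfs1 at -0.09.

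**Figure D2:**
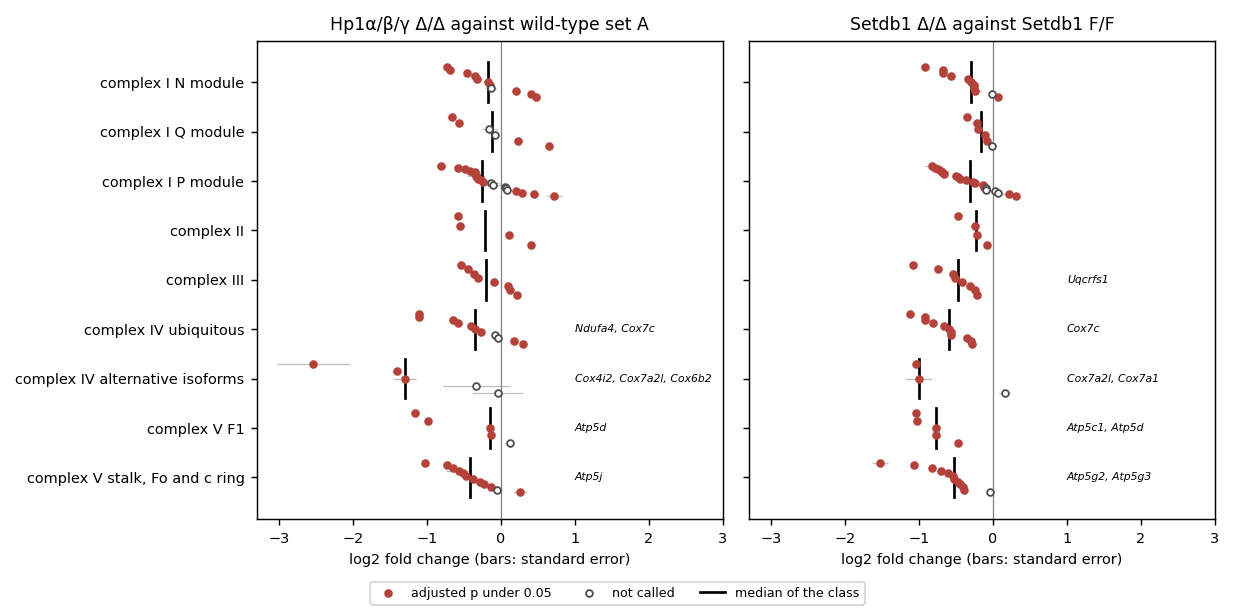
Log2 fold change of each tested nuclear subunit gene (horizontal axis) by complex and module in the triple mutant against set A and in Setdb1 Δ/Δ against Setdb1 F/F, with genes past a log2 fold change of 1 in size listed at the right of each class. Points lie mostly left of 0 in both panels, and Cox7a2l, Cox7c and Atp5d are listed in both.

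The triple mutant differs from the Hp1α/β Δ/Δ cells by Hp1γ, by the floxed line and by recent Cre transfection, which cannot be told apart. Against these cells the decrease covered more members. Of 80 genes tested 60 fell and 6 rose (median -0.42), where 39.3% of all genes tested fell and 41.3% rose. With only genes of at least 10 counts in every library kept, 49 fell and 13 rose. The summed level was 81.6% of that in Hp1α/β Δ/Δ cells. The 7 genes past the fold threshold, against 41.4% of all genes, were Cox6b2 (-1.97), Cox7a2l (-1.54), Atp5d (-1.37), Cox7a1 (-1.28), Cox7c (-1.14), Ndufa4 (-1.10) and Atp5c1 (-1.09). Among the 6 that rose were Ndufa9 (0.63), Ndufs1 (0.42) and Sdhd (0.33). Cox4i1, which was higher than in wild type, was lower than in Hp1α/β Δ/Δ cells, with a log2 fold change of -0.10 that turned to 0.00966 when at least 10 counts in every library were required. The comparisons share the triple mutant libraries and are therefore not independent.

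After deletion of Setdb1 nearly every tested nuclear subunit gene was lower. The summed level was 10420 to 10450 CPM in Setdb1 F/F libraries and 7407, 7528 and 7540 CPM in Setdb1 Δ/Δ libraries, or 71.8% of control. Of 80 genes tested 69 fell and 3 rose (median log2 fold change -0.46, range -1.53 to 0.31), where 38.8% of all genes tested fell and 40.2% rose. Changes by fold were found in 8, all lower, against 29.9% of all genes in either direction. In 67 members each Setdb1 Δ/Δ library lay below each control library, against 38.9% of all genes tested.

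Nuclear subunits of complexes III, IV and V, the catalytic head of complex V among them, were included in this decrease. All 8 complex III genes fell (median -0.47), with the Rieske gene Uqcrfs1 going from 118, 125.2 and 123.8 CPM to 60.7, 56.5 and 57.7 CPM (-1.08 ± 0.0382, SE, edgeR adjusted p = 3.21e-14). All 11 ubiquitous complex IV genes fell (median -0.60), among them Cox4i1, from 331, 330.7 and 327 CPM to 223.5, 225.6 and 219 CPM. In complex V 16 of 17 fell and none rose (median -0.62), and in the F1 head all 5 fell (median -0.77). Atp5a1 went from 1276, 1263 and 1271 CPM to 747.3, 735 and 766.2 CPM, and Atp5b from 1861, 1853 and 1865 CPM to 1333, 1349 and 1372 CPM. Neither pair of groups overlapped. The c ring genes Atp5g2 (-1.53) and Atp5g3 (-1.07) fell by fold and Atp5g1 fell by 0.41. Atp5g2 was a low-abundance gene, at 13.9 to 15.8 CPM in control and 4.64 to 6.10 CPM in the mutant.

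Complexes I and II had smaller medians after Setdb1 deletion. In complex I 28 of 37 genes fell and 3 rose (median -0.26), and all 4 complex II genes fell (median -0.23). The 3 that rose were Ndufs1 (0.07), the membrane arm subunit Ndufa11 (0.31 ± 0.0463, SE) and the accessory subunit Ndufa1, whose libraries overlapped. Of the isoform genes, Cox7a1 fell from 4.18, 3.63 and 3.45 CPM to 2.02, 1.91 and 1.72 CPM and Cox6b2 had a log2 fold change of 0.16 that did not pass the test. Cox7b2, a testis isoform of subunit 7b, and Cox8c were too low to test. Cox7b2 was at 0, 0.0558 and 0 CPM in control and at 0.554, 0.43 and 0.715 CPM in the mutant, and Cox8c was at 0 in all control libraries and at 0.252, 0.622 and 0.429 CPM in the mutant.

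**Figure D3:**
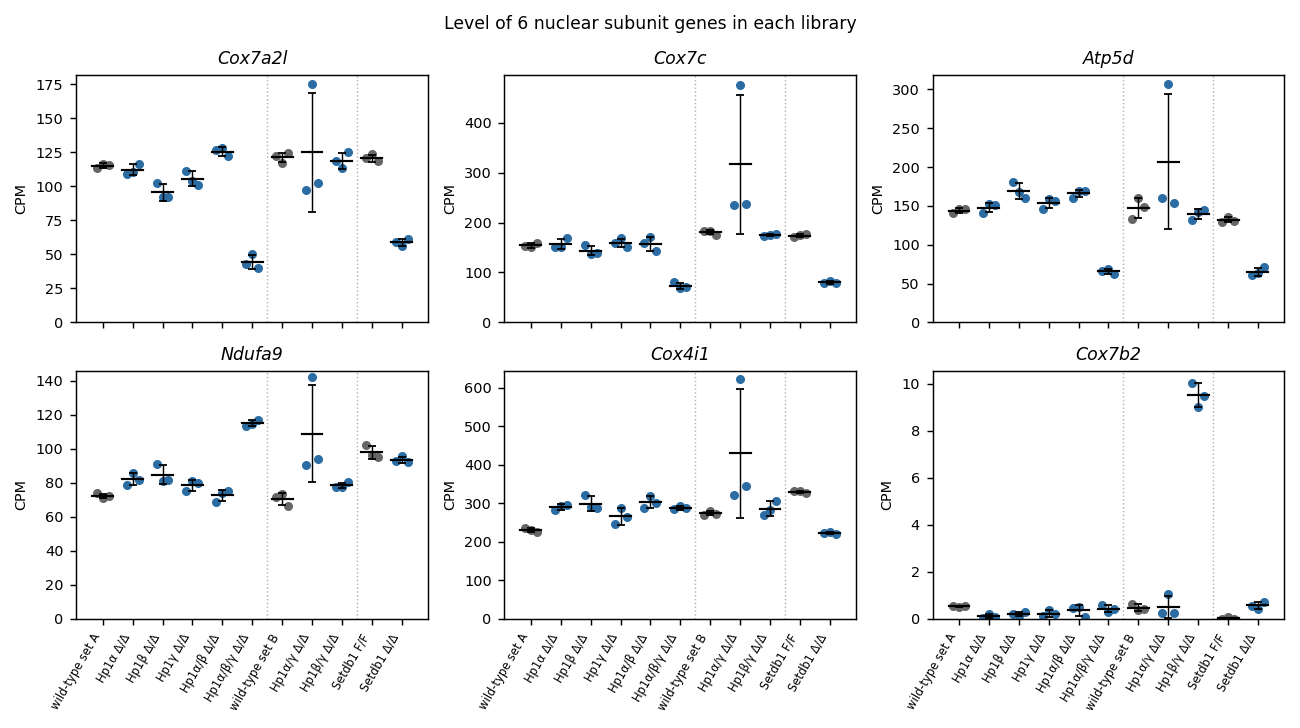
CPM of Cox7a2l, Cox7c, Atp5d, Ndufa9, Cox4i1 and Cox7b2 in each group (points are libraries, bars the mean ± SD of 3, grey points controls, dotted lines separate sets of tables). Cox7a2l, Cox7c and Atp5d drop in both the triple mutant and Setdb1 Δ/Δ cells, Ndufa9 and Cox4i1 rise in the triple mutant, and Cox7b2 stands out in Hp1β/γ Δ/Δ cells at 9.02 to 10.05 CPM.

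Of 80 genes tested in both comparisons, 45 fell in both, against 26.1% of all genes tested in both, and 3 fell by fold in both, against 5.11%. These 3 were Atp5d (ENSMUSG00000003072, chr10:80138632-80145818, plus strand), Cox7c (ENSMUSG00000017778, chr13:86044816-86046904, minus strand) and Cox7a2l (ENSMUSG00000024248, chr17:83501918-83517330, minus strand), in GRCm38 coordinates of GENCODE M21. In Setdb1 F/F and Setdb1 Δ/Δ libraries Cox7a2l was at 120.4, 123.3 and 118.2 CPM and at 58.8, 56.3 and 61.2 CPM. Cox7c was at 170.5, 174.2 and 177.1 CPM and at 78.2, 83.6 and 78.5 CPM, and Atp5d at 129.8, 135.5 and 131.1 CPM and at 61.1, 63.9 and 70.7 CPM. The promoters of these 3 genes and of Ndufa9 (ENSMUSG00000000399, chr6:126821721-126849136, minus strand), which rose by more than any other member except Ndufa3 in the triple mutant, are printed so that genes that moved together and in opposite directions can be read side by side. Each is 300 bases in RefSeq's GRCm38.p6 table, 5′ to 3′ on the gene's strand, from 250 bases before to 50 bases after the RefSeq start. Capitals mark a match to 1 of 3 motifs of factors known from respiratory chain promoters, searched on both strands: the NRF1 core GCATGCGC, the ETS core CCGGAAG bound by GABPA, and the YY1 core AAGATGG, of which the ETS and YY1 strings can share the letters AAG.
Atp5d, chr10:80142025-80142324: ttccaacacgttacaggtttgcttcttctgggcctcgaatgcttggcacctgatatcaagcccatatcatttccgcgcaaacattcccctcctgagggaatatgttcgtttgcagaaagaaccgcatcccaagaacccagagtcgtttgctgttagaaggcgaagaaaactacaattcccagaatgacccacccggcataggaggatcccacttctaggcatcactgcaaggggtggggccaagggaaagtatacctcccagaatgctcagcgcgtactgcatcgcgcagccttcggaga
Cox7c, chr13:86046746-86047045: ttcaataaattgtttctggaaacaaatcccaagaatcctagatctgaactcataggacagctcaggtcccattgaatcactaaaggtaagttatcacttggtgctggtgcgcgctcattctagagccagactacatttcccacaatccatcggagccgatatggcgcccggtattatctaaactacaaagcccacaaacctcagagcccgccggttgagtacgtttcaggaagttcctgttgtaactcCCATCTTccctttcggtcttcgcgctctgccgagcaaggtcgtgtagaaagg
Cox7a2l, chr17:83514284-83514583: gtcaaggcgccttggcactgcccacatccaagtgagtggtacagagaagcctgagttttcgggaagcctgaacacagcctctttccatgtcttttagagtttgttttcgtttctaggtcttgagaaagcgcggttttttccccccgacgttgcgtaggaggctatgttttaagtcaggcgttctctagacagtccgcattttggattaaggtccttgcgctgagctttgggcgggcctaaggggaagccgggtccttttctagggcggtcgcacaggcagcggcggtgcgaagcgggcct
Ndufa9, chr6:126849095-126849394: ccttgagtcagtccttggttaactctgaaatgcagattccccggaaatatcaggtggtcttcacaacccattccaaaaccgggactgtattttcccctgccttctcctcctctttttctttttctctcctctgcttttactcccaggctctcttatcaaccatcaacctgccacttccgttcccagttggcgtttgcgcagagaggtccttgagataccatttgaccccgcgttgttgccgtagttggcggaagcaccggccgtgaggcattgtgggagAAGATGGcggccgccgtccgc

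The YY1 core was found once in the Cox7c window, on the reverse strand from base -2 to base 4 of the start, and once in the Ndufa9 window, from base 29 to base 35. No motif was found in the Atp5d and Cox7a2l windows, nor in a second Atp5d window of the table, chr10:80142065-80142364, which is not printed. Over all 32851 promoters in the table, 2.71% held the NRF1 core, 8.86% the ETS core and 6.34% the YY1 core. A promoter was listed for 69 of the 89 nuclear subunit genes (77.5%), too few for a share over the members to be given.

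The effects in the triple mutant and after Setdb1 deletion differed for many members when the difference itself was fitted over the 12 libraries, a comparison chosen after the values were seen. Of 82 genes, 42 had a higher log2 fold change in the triple mutant and 17 a lower one, where 31.3% of all genes were above and 33.6% below. Of the 80 genes tested in both, 15 passed the test in opposite directions and in the difference itself, close to the 18.3% of all genes that did so. The difference was 1.37 ± 0.0732 (SE) for Ndufv3, which went from 35.4, 37.5 and 32.8 CPM to 50.5, 49.9 and 49.1 CPM without HP1 and from 44.9, 44.5 and 44.9 CPM to 23.6, 23.4 and 24.3 CPM without Setdb1. It was 0.96 for Uqcrfs1 and 0.84 for Cox4i1. Cox7a2l fell by more without HP1 (difference -0.39, edgeR adjusted p = 8.74e-05), as did Atp5d (-0.16) and Ndufa4 (-0.47). For Cox7c the difference of -0.00359 ± 0.0635 (SE) did not pass the test (edgeR adjusted p = 0.986). The Setdb1 pair and the HP1 libraries came from separate tables with their own controls.

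Other features moved along with these decreases, and their part in the result was not tested except where a value is given. Cytosolic ribosomal protein genes, which are also short and abundant, fell in 80 of 87 cases in the triple mutant (median -0.69) and in 84 of 88 in Setdb1 Δ/Δ cells (median -1.11). Among well-expressed genes of all kinds, those in the shortest length class had a median of -0.52 and -0.62 in the same comparisons, and those in the longest class -0.14 and -0.05. With the trends on length, GC content and level taken out by a spline fit, the median of the subunit genes was -0.37 in the triple mutant and -0.46 in Setdb1 Δ/Δ cells, where that of all genes was -0.17 and -0.14. Of the cell type markers, the 6 pluripotency markers had sums of 2404 to 2415 CPM in wild type (set A) against 1230 to 1274 CPM in the triple mutant. The sums were 4862 to 4899 CPM and 3624 to 3665 CPM in Setdb1 F/F and Δ/Δ cells, with none at 0. Not all followed the sum. Esrrb averaged 327 and 390 CPM and Zfp42 58.9 and 61.5 CPM in set A and the triple mutant. After Setdb1 deletion Zfp42 went from 335 to 535 CPM and Sox2 from 567 to 626 CPM. The means of the other markers were lower in each case. The 10 feeder fibroblast markers summed to 27.8 to 29.8 CPM and 12.3 to 13.9 CPM, and to 10.1 to 11.4 CPM and 4.72 to 6.05 CPM. The 4 endoderm markers summed to 1.29 to 1.48 CPM and 14.2 to 14.6 CPM, and to 8.25 to 9.46 CPM and 6.53 to 6.98 CPM. The 6 cardiac and skeletal muscle markers summed to 17.5 to 19.2 CPM and 105.1 to 118.3 CPM, most of it Actn2, and to 2.57 to 3.18 CPM and 12.2 to 14.1 CPM, while the muscle isoforms Cox6a2 and Cox8b stayed at or near 0.

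In the single mutants the same genes were slightly higher than in set A, and all of these comparisons share the set A libraries. The summed level was 9700 to 9907 CPM in Hp1α Δ/Δ, 9783 to 10730 CPM in Hp1β Δ/Δ and 9670 to 10040 CPM in Hp1γ Δ/Δ libraries, all above the 8712 to 8791 CPM of set A. In Hp1α Δ/Δ cells 57 of 82 tested genes rose and 5 fell (median 0.21), where 22.8% of all genes rose and 22.2% fell, and 1 passed the fold threshold against 4.87% of all genes. In Hp1β Δ/Δ cells 55 rose and 5 fell (median 0.23), where 24.7% rose and 26.4% fell, and 1 passed the fold threshold against 9.10%. In Hp1γ Δ/Δ cells 60 rose and 4 fell (median 0.20), where 23.4% rose and 23.3% fell, and 0 passed the fold threshold against 5.58%. A fit of all 33 libraries, in which the groups share 1 estimate of the spread, called only 5, 22 and 12 of the genes in the 3 mutants. That estimate includes the outlying second Hp1α/γ Δ/Δ library, and no such fit was made without it. With the trends on length, GC content and level taken out the medians were 0.09, 0.08 and 0.07, against 0.02, 0.01 and 0.01 for all genes.

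The increases in the single mutants were spread over the complexes. Complex I held 26 of 37 higher genes in Hp1α Δ/Δ, 25 in Hp1β Δ/Δ and 26 in Hp1γ Δ/Δ cells. Atp5md, a small membrane subunit of ATP synthase, rose in all 3 (0.42, 0.69 and 0.55), and in Hp1β Δ/Δ cells it was at 53.6, 47.9 and 51.5 CPM against 32.8, 31.8 and 28.9 CPM. The c ring gene Atp5g1 rose most in Hp1β Δ/Δ cells, at 201.2, 180.6 and 182.7 CPM against 119.4, 116.4 and 118 CPM (0.66). Uqcrh, the hinge protein of complex III, rose by 0.40, 0.55 and 0.48 on the log2 scale. Cox7b2 was the gene past the fold threshold in Hp1α Δ/Δ cells, at 0.0456, 0.219 and 0.0941 CPM against 0.555, 0.508 and 0.529 CPM, and in Hp1β Δ/Δ cells (-1.32).

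Some members that fell in these mutants lie on chromosome 16. Atp5o, the oligomycin sensitivity protein of the ATP synthase stalk, was at 180.8, 179.9 and 184.1 CPM in Hp1α Δ/Δ cells and 223.8, 230.3 and 233.6 CPM in set A (-0.33). It also fell in Hp1γ Δ/Δ (-0.37), Hp1α/β Δ/Δ (-0.30) and, against set B, Hp1β/γ Δ/Δ cells (-0.39). The 3 tested members on this chromosome, Atp5o, Atp5j and the complex I gene Ndufb4, had medians of -0.31, -0.27, -0.28 and -0.30 in these 4 groups, where the other members had 0.22, 0.21, 0.13 and 0.11. All tested genes of chromosome 16 had medians of -0.51, -0.51, -0.42 and -0.44, and what set the level of the chromosome was not tested. In Hp1β Δ/Δ cells the 3 members had a median of 0.08 and all genes of the chromosome one of -0.31, and in Hp1α/γ Δ/Δ cells they had 0.51 against 0.78 for the other members and -0.43 for the chromosome. In the triple mutant against set A the members on chromosome 16 had a median of -0.47, with Atp5j lowest at -1.025. All tested genes of chromosome 16 had a median of -0.30 there. Against Hp1α/β Δ/Δ cells these medians were -0.26 and 0.12. In the triple mutant against set A the members on chromosome 8, Cox4i1, Ndufb7 and Ndufa13, had a median of 0.29 and all genes of that chromosome one of 0.52. The 4 tested members on chromosome 6, Ndufa9 among them, had a median of -0.15 (range -1.11 to 0.65). All tested genes of chromosome 6 had a median of 0.38, and the part of these chromosomes in the triple mutant values was not tested.

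The Hp1α/β Δ/Δ cells also showed small increases. The summed level was 9259 to 9777 CPM, 108.8% of set A. Of 82 genes tested 35 rose and 3 fell (median 0.13), where 21.3% of all genes rose and 22.1% fell, and 2 passed the fold threshold against 8.15%. The fit of all libraries called 7 in place of 38. With the trends on length, GC content and level taken out the median was 0.012, against 0.013 for all genes. Past the fold threshold were Cox7a1, at 3.14, 4.76 and 2.63 CPM against 1.25, 1.06 and 2.21 CPM (1.22), and Cox4i2 (-1.36), both of low abundance. Of the 11 ubiquitous complex IV genes 9 rose and none fell (median 0.26), and none of the 4 complex II genes passed the test. Cox6b2 rose by 0.65 and Cox6a1, the ubiquitous subunit 6a, by 0.41. No Hp1α/β Δ/Δ library overlapped with set A or with the triple mutant in this sum.

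In Hp1β/γ Δ/Δ cells the members were mixed, with 34 of 82 tested genes higher and 10 lower (median 0.10), where 26.0% of all genes rose and 25.7% fell. The median changed sign, to -0.12, with the trends on length, GC content and level taken out, and the fit of all libraries called 14 in place of 44. The summed level, 8813 to 9239 CPM, was 101.9% of set B. Of 3 genes past the fold threshold, against 11.9% of all genes, Cox7b2 had the highest fold change of any member in any comparison. It was at 10.05, 9.02 and 9.48 CPM in Hp1β/γ Δ/Δ cells and at 0.638, 0.358 and 0.41 CPM in set B (4.34 ± 0.199, SE, edgeR adjusted p = 8.98e-11), and the groups did not overlap. The testis markers Prm1, Prm2, Tnp1 and Akap4 summed to 0.0439 to 0.0871 CPM in these libraries, with 3 of the 4 at 0. The ubiquitous partner of this isoform, Cox7b, did not pass the test (0.10). The others past the fold threshold were Cox7a1 (1.01) and Cox4i2 (-1.42).

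Hp1α/γ Δ/Δ cells had the highest summed levels of the series, and their second library was far above the others. The 3 libraries held 11390, 19260 and 11680 CPM in the 89 genes, against 8770 to 8865 CPM in set B, and without the second the mean was 130.7% of that of set B. The 6 pluripotency markers summed to 3962, 6064 and 4136 CPM against 2247 to 2322 CPM in set B, although Sox2 was level, at means of 383 and 386 CPM. The 10 feeder markers summed to 9.98 to 11.3 CPM against 48.4 to 57.7 CPM, and the part of either marker set in the result was not tested. Over the 3, 56 of 81 tested genes rose and 0 fell (median 0.77, lowest -0.01), where 20.2% of all genes rose and 26.3% fell, and 17 passed the fold threshold against 23.1% of all genes. Without the second library 72 rose and 1 fell (median 0.44, 79 of 81 above 0), where 32.4% of all genes rose and 34.7% fell, and 1 passed the fold threshold against 23.4%. Without a set B library only 8 to 11 of the genes passed the test. By library the members' median log2 ratio was 0.42, 1.39 and 0.45, that of short genes 0.28, 1.16 and 0.32 and that of cytosolic ribosomal protein genes 0.20, 1.25 and 0.26. With the trends on length, GC content and level taken out over the 3 libraries the members' median was 0.03. The part of transcript length in this result beyond these values was not tested.

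Among the members in Hp1α/γ Δ/Δ cells, Uqcrq, a small complex III subunit, was at 191.7, 406.6 and 190.2 CPM against 102.2, 104 and 102.6 CPM in set B, so its other two libraries were also above every control. Its log2 fold change was 1.30 over all libraries and 0.89 without the second. Cox7a1 was at 4.82, 15.1 and 6.73 CPM against 1.67, 1.84 and 1.96 CPM, with 2.22 over all libraries and 1.66 without the second, and was the 1 gene still past the fold threshold. Cox6c, a complex IV subunit, had 1.16 and 0.86, and the complex I accessory subunits Ndufb2 and Ndufb6 had 1.21 and 0.80 and 1.10 and 0.78. Cox7a2l, the gene that fell most by fold among the abundant members in the triple mutant, stood at -0.01 over all libraries and fell by 0.28 without the second.

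**Figure D4:**
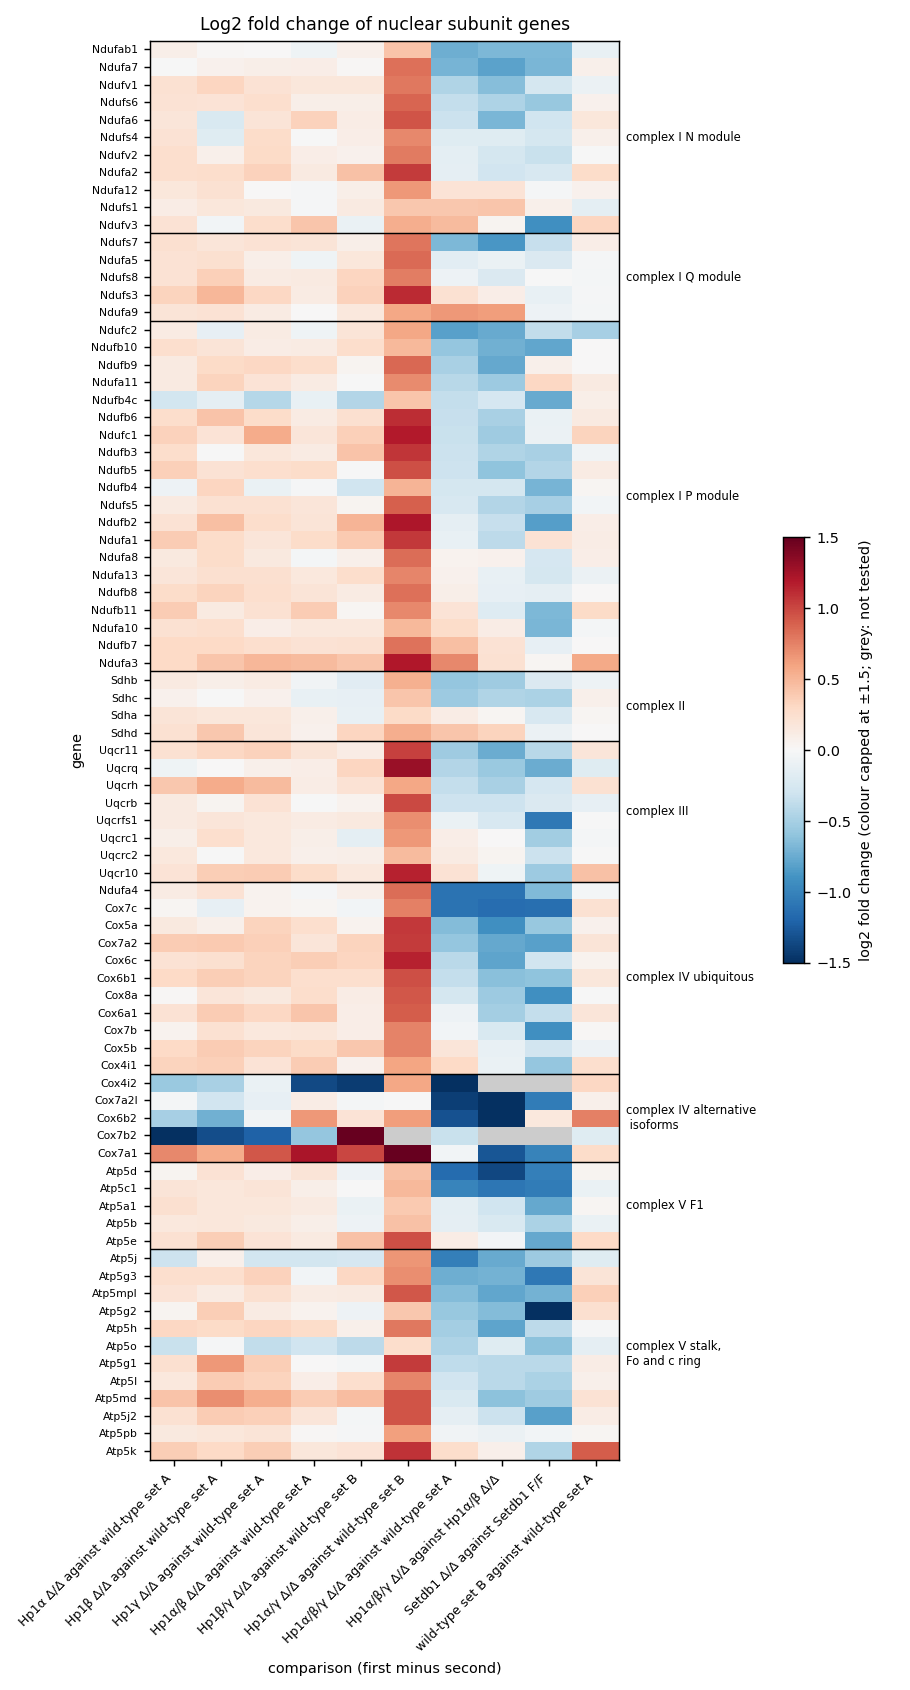
Log2 fold change of tested nuclear subunit genes (rows, by complex, with 1 complex I gene not shown) in the 10 comparisons (columns), with colour limited to 1.5 in either direction and grey where a gene was not tested. The single mutants and Hp1α/γ Δ/Δ cells are mostly on the higher side, Setdb1 Δ/Δ cells almost entirely on the lower side, and the triple mutant is mixed with most genes lower.

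The wild-type sets gave a measure of the difference between cells with the same label. Of 82 genes tested 18 were higher and 5 lower in set B (median 0.06), where 12.3% of all genes were higher and 12.5% lower, and 0 passed the fold threshold against 5.68%. The number called was 15 and 12 without the first or second set A library, 14 without the third set B library and 4 in the fit of all libraries. The highest values were those of Atp5k (0.91), a small membrane subunit of ATP synthase, Cox6b2 (0.76) and Ndufa3 (0.57), and the lowest was that of the complex I gene Ndufc2 (-0.50). The rises of Cox6b2 in Hp1α/β Δ/Δ and of Ndufa3 in Hp1γ Δ/Δ and Hp1α/β Δ/Δ cells were within this difference and turned negative when set B was used as the control. In the triple mutant the rises of Atp5k (0.26), Uqcr10 (0.22) and Ndufb11 (0.20) were also smaller than the difference between the sets (0.91, 0.44 and 0.29). Those of Ndufa3 (0.72) and Cox4i1 (0.29) were larger than it (0.57 and 0.25).

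The 8 Ndufaf genes, which encode complex I assembly factors and no subunits, were mixed in the triple mutant, where 5 fell and 2 rose. Ndufaf4 rose from 17.9, 18.4 and 20.2 CPM to 41.9, 47.1 and 47.9 CPM (1.25), and Ndufaf1 (-1.04) and Ndufaf7 (-1.04) fell. After Setdb1 deletion 5 fell and 1, Ndufaf1 (0.39), rose. Assembly factors outside the symbol rule leaned higher in the triple mutant, with 24 of 39 higher and 11 lower (median 0.45), among them the cytochrome oxidase factors Cmc1 (2.34), Cox20 (1.74) and Cox10 (1.67). The shares over all genes stand beside the subunit counts above, at 41.7% higher and 39.9% lower in the triple mutant and 40.2% and 38.8% after Setdb1 deletion, and are the measure for each list here. After Setdb1 deletion 12 of 40 were higher and 14 lower (median -0.04). The electron carrier gene Cycs, which encodes somatic cytochrome c, stood at -0.06 in the triple mutant without passing the test and fell by 0.66 after Setdb1 deletion.

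Genes that control mitochondrial gene expression were lower more often than higher, with 12 of 23 lower and 4 higher in the triple mutant and 13 of 22 lower and 5 higher after Setdb1 deletion. The mitochondrial RNA polymerase gene Polrmt fell by 1.32 in the triple mutant, Lrpprc, which stabilises mitochondrial mRNAs, by 0.89, Nrf1 by 0.76 and Tfam by 0.38. The exception in size was Ppargc1a, a coactivator of mitochondrial biogenesis, which rose to 6.50 to 9.38 CPM in the mutant from at most 0.0925 CPM in wild type. In the tricarboxylic acid cycle and pyruvate dehydrogenase list 13 of 18 genes fell and 1 rose in the triple mutant, and 15 of 18 fell and 2 rose after Setdb1 deletion. Idh2 fell by 1.68 and 2.65, Pdha1 by 1.47 and 1.88 and Idh3a by 1.13 and 1.12 in the same order. Mitochondrial ribosomal protein genes in the triple mutant (34 higher and 32 lower of 78) were close to the shares over all genes, and they were mostly lower after Setdb1 deletion (10 higher and 52 lower of 78).

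The 13 protein genes of the mitochondrial genome are described separately because their counts depended on how reads were shared with nuclear copies. A stretch of chromosome 1 carries 7 annotated copies of mitochondrial genes on the minus strand, and BLAST matched 5 of them at 100% over their whole length, so reads from these cannot be told apart by sequence. The starts of 2 genes, mt-Nd3 (ENSMUSG00000064360, chrM:9459-9806) and mt-Atp6 (ENSMUSG00000064357, chrM:7927-8607), are printed beside their copies Gm28438 (chr1:24612775-24613119) and Gm10925 (chr1:24613974-24614651), in GRCm38, because mt-Atp6 was listed at 0 in every library of the set A tables and mt-Nd3 at 0 in the triple mutant. They are the annotated transcripts 5′ to 3′ from the first base, with a capital at the base that differs. mt-Nd3 and Gm28438 differ by T3C in bases counted from the start of mt-Nd3, and no base differs between mt-Atp6 and Gm10925.
mt-Nd3: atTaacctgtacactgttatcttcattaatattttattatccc
Gm28438: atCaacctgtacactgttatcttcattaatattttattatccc
mt-Atp6: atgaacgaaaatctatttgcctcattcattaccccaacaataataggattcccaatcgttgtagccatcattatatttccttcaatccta
Gm10925: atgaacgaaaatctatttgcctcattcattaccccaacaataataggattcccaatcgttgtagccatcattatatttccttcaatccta

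mt-Atp6, a proton channel subunit of ATP synthase, was listed at 0 in all set A and triple mutant libraries while its copy held counts there, and it averaged 105 to 236 CPM in the groups of other tables. For mt-Atp6 and Gm10925 together the means were 940 CPM in set A and 182 CPM in the triple mutant, 2444 CPM in set B, and 2774 and 1725 CPM in Setdb1 F/F and Δ/Δ cells. For mt-Co2, which encodes subunit 2 of cytochrome c oxidase, 95.1% of the count of the pair lay on the copy Gm28661 in set A. Even genes without a copy of full length differed between the wild-type sets, with mt-Nd4 at 6739 CPM in set A and 1813 CPM in set B. Levels were therefore compared only between libraries whose tables share a wild-type set or within the Setdb1 table, and the sum with the copies is given beside that of the genes.

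Within the triple mutant's own table, RNA of the mitochondrial genome was much lower than in wild type. The 13 genes summed to 26920, 27040 and 25650 CPM in the set A libraries, against 7473, 7361 and 7894 CPM in the triple mutant, and genes and copies together in the mutant were at 27.6% of set A. Each library of the mutant was below each of the wild type for 10 of 13 genes. The 11 genes with counts in both groups were 2.89- to 6.68-fold lower, with mt-Co2 at the upper end. Most counts of the mt-Co2 and mt-Co3 pairs lay on the copies. Summed with its copy, mt-Co2 went from 3909 to 863.6 CPM and mt-Co3 from 3196 to 876.2 CPM. mt-Co1, which encodes the catalytic subunit of cytochrome c oxidase, went from 11830 to 4100 CPM and mt-Cytb, the complex III core subunit, from 2113 to 697.9 CPM. The complex I subunits mt-Nd1 and mt-Nd4 went from 2780 to 562.8 CPM and from 6739 to 1648 CPM. mt-Nd3 had 173, 221 and 364 counts in set A and 0 in the mutant libraries, at least 88.6-fold lower against a floor of 3 counts per library, but with its copy the pair went from 190 to 38.6 CPM. mt-Co3 and mt-Nd4l also had 0 or few counts in single libraries of these groups, and their groups overlapped, while the sums with their copies did not. Against the Hp1α/β Δ/Δ cells genes and copies together were at 24.9%. The counts of the mitochondrial ribosomal RNAs were nearly level, with mt-Rnr1 at 250 and 244 CPM and mt-Rnr2 at 155 and 147 CPM (log2 fold changes -0.06, not passing the test, and -0.10). These counts were low beside mt-Co1, and their order was reversed in Setdb1 F/F cells, at 92.5 and 434 CPM. How far they reflect the ribosomal RNA of the cells was not tested.

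**Figure D5:**
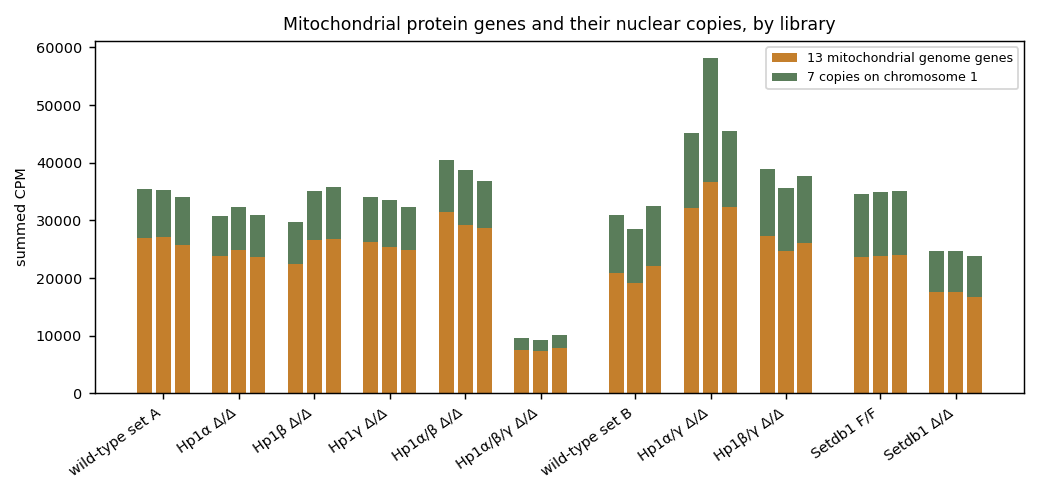
Summed CPM of the 13 mitochondrial protein genes and of their 7 copies on chromosome 1 in each library, as stacked bars from 0. The triple mutant libraries, at 7361 to 7894 CPM in the 13 genes, are the lowest of the series.

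After Setdb1 deletion the mitochondrial genes were lower by smaller factors. The sum was 23690, 23750 and 23950 CPM in Setdb1 F/F and 17540, 17620 and 16780 CPM in Setdb1 Δ/Δ libraries, and genes and copies together were at 70.1% of control. All mutant libraries were below all controls for 12 of 13 genes, by 1.08- to 3.38-fold, with mt-Co2 the exception. Summed with its copy, mt-Co2 was at 4162 to 4173 CPM in control and 2507 to 2609 CPM in the mutant. mt-Nd5 (1.08-fold), mt-Nd6 (1.09-fold) and mt-Cytb (1.09-fold) were the least lowered. The largest factors, for mt-Nd3 (3.38-fold) and mt-Co3 (2.50-fold), belonged to genes with most counts on their copies. With the copies these went from 361 to 200 CPM and from 3680 to 2481 CPM. mt-Nd1, without a listed copy, was 1.99-fold lower. The counts of the mitochondrial ribosomal RNAs fell here (-0.68 and -0.67), with the same limit on what they reflect. In the other mutants the sum with the copies was 89.7% of set A in Hp1α Δ/Δ, 96.0% in Hp1β Δ/Δ, 95.4% in Hp1γ Δ/Δ and 110.9% in Hp1α/β Δ/Δ cells, and of set B it was 161.8% in Hp1α/γ Δ/Δ (147.8% without the second library) and 121.9% in Hp1β/γ Δ/Δ cells.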

How the data were processed

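RNA-seq was measured in 33 libraries. The libraries were made, per the labels and the study's methods, with Illumina TruSeq kits, and the submitters' processing notes name TopHat2 2.1.1, RSEM, edgeR and GRCm38.p5. The authors deposited 8 tables in which each estimated count per gene and library came with a TPM value, both made with these tools, whose settings are not given. Of the estimated counts 87.1% were whole, and TPM columns summed to 954064 to 988104. Columns of group mean TPM and of the authors' own fold changes and p-values were not used. The kit's strand setting in counting is not given in the sources used here, so overlapping and antisense genes are uncertain.

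Estimated counts were rounded, filtered with filterByExpr (minimum count 10), scaled by TMM and tested with edgeR 4.0.16 in R 4.3.3 (glmQLFit and glmQLFTest) in each of 10 comparisons, adjusting p-values by Benjamini-Hochberg over all genes tested. Log2 ratios by library used a pseudocount of 0.5 CPM. Trends on length, GC content and level were fitted with 5-knot splines, and length classes used genes of log2 CPM 5 or more. Alternatives included DESeq2 1.42.0, other scalings and filters, a fit of all libraries, the other wild-type set and leaving out each library. The fit of the difference between effects and the length classes and sums without a library were chosen after seeing the data. In simulated data for the triple mutant comparison (17384 genes) 187 of 200 changed genes were recovered and 6 unchanged genes were called. Replicates differed beyond sampling noise. The study calls them biological replicates and the labels do not say how they were obtained, so p-values measure the spread between these libraries. Counting intervals are not given. Exact permutation of 3 against 3 cannot go below p = 0.1 and was not used.

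Same-numbered libraries deviated together in every pair only for Hp1β Δ/Δ against set A (correlations 0.113 to 0.293) and set B against set A (0.104 to 0.234). The pairing comes from the data, not the labels.

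Genes were matched to GENCODE M21 by identifier (55141 of 55487), and copies were compared with blastn 2.17.0+. Named genes were the mitochondrial protein genes, the 5 highest and 5 lowest called nuclear genes of each comparison, 12 core subunits (the values of 1 are not reported here), isoform sets, Ndufa4 and genes past the fold threshold. The members and lists were chosen with earlier results of these data known.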

Additional observations from a re-analysis of the deposited data

Results flagged for a closer look

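For 15 nuclear subunit genes the effect in the triple mutant (Hp1α/β/γ Δ/Δ against set A) and after Setdb1 deletion (against Setdb1 F/F) passed the test in opposite directions, and the difference of the log2 fold changes, fitted over 12 libraries, passed it as well (edgeR's quasi-likelihood test). The difference, triple mutant minus Setdb1 mutant, was 1.37 for Ndufv3, 0.94 for Ndufa10, 0.84 for Ndufb11, 0.84 for Cox4i1, 0.74 for Uqcr10, 0.70 for Ndufa9 and 0.68 for Atp5k. It was 0.59 for Uqcrc1, 0.54 for Ndufb7, 0.47 for Sdhd, 0.44 for Cox5b, 0.42 for Uqcrc2, 0.33 for Sdha and 0.32 for Ndufs3. Ndufa11 was the only one of the 15 with a negative difference, -0.75. Set B was above set A by 0.91 for Atp5k, 0.44 for Uqcr10 and 0.29 for Ndufb11. These genes rose by less in the triple mutant (0.26, 0.22 and 0.20). For Cox4i1 the sets differed by 0.25 and the rise was 0.29. For the other genes that rose the difference between the sets was smaller than the rise. Over all genes tested in both comparisons 18.3% met the same conditions, close to the share of the members. The 15 genes belong to complexes I to V, and 7 of them encode complex I subunits. The Setdb1 pair and the HP1 libraries have separate controls, and cells with both changes were not analysed here.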

How the results depend on the processing

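Called genes are counted here in both directions. The shared spread of the fit over all 33 libraries includes the outlying second Hp1α/γ Δ/Δ library. One fit over all 33 libraries called fewer members: 5 in Hp1α Δ/Δ, 22 in Hp1β Δ/Δ, 12 in Hp1γ Δ/Δ, 7 in Hp1α/β Δ/Δ, 14 in Hp1β/γ Δ/Δ, 41 in Hp1α/β/γ Δ/Δ against set A and 4 in set B against set A. In the separate fits of each comparison, with a log2 fold change over 1 also required, the counts were 1, 1, 0, 2, 17 (Hp1α/γ Δ/Δ), 3, 7, 7 (Hp1α/β/γ Δ/Δ against Hp1α/β Δ/Δ), 8 (Setdb1 Δ/Δ) and 0. Leaving out each library in turn gave 8 to 73 calls in Hp1α/γ Δ/Δ, with 73 without its second library and 11, 8 and 9 without a set B library, and 12 to 26 for set B against set A, with 15 and 12 without the first and second set A library and 14 without the third set B library. Fewer libraries enter these fits. No other count left the 1.5-fold range on leaving out a library. With the replicate block the counts were 63, 58, 64, 38, 48, 45, 68, 67, 70 and 24, in the order Hp1α, Hp1β, Hp1γ, Hp1α/β, Hp1α/γ, Hp1β/γ, triple mutant against set A and against Hp1α/β Δ/Δ, Setdb1 and set B, none moved by over 1.5 times.

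The median of Hp1β/γ Δ/Δ turned to -0.12 after removal of trends with length, GC content and expression. With the other wild-type set as control the log2 fold change turned to -0.0536 for Ndufa3 and -0.026 for Cox4i1 in Hp1γ Δ/Δ, to -0.0894 for Ndufa3, -0.103 for Cox6b2 and -0.0133 for Cox7a2 in Hp1α/β Δ/Δ and to -0.0196 for Ndufs1 in Hp1β/γ Δ/Δ. With at least 10 counts in every library required, Uqcrfs1 in the triple mutant turned to 0.00179 and Cox4i1 against Hp1α/β Δ/Δ to 0.00966. Under that filter 49 members fell and 13 rose against Hp1α/β Δ/Δ (60 and 6 without it) and 41 fell and 21 rose against set A. DESeq2 gave 48 lower and 17 higher genes in the triple mutant, and the other wild-type set 52 and 13. The cause was not tested.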
